A study of Mus musculus with 8 samples.

Results

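The 10 genes described here encode receptors, a ligand and regulators of Notch signaling, namely Notch1, Notch2, Notch4, Jag1, Adam10, Adam17, Rbpj, Maml1, Dtx4 and Hes1. They were chosen by name as 10 of the 54532 genes in a table of RNA-seq read counts from mouse bone marrow-derived macrophages (BMDMs). The study used this experiment to ask how loss of gasdermin D, the protein encoded by Gsdmd that forms membrane pores when cleaved during pyroptosis, changed gene expression in macrophages, and Notch signaling was among the pathways it addressed. There were 4 libraries from wild-type (WT) cells and 4 from Gsdmd-/- cells, none of them treated. The cells were grown from the marrow of female C57BL/6J mice of 6 to 8 weeks and differentiated for 6 days with macrophage colony-stimulating factor (M-CSF). WT mice were bought from a supplier, and Gsdmd-/- mice were a gift and were kept in a university facility, so genotype and source of the animals cannot be told apart. Which exons the Gsdmd-/- allele lacks was not given in the sources used here. The sources do not say whether each library came from a different mouse, and the p-values therefore measure only the spread between these libraries, which may be technical.

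Notch receptors are membrane proteins that are activated by ligands on neighbouring cells. Ligand binding exposes the receptor to a metalloprotease of the ADAM family and then to γ-secretase, which frees the intracellular domain. This domain enters the nucleus, binds the DNA-binding protein Rbpj, recruits Mastermind-like coactivators such as Maml1 and switches on targets such as Hes1. Deltex proteins, including Dtx4, are ubiquitin ligases that act on the receptor. In myeloid cells the pathway is known for roles in dendritic cell and macrophage fates.

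Among these genes, Jag1, which encodes the ligand Jagged1, had the smallest p-value between genotypes. Its level was lower in each of the 4 Gsdmd-/- libraries than in any WT library, with means of 9.0 and 16.8 CPM (read counts scaled to a common library size), although its adjusted p of 0.0515 was just above the threshold of 0.05. Transcripts of the receptors Notch1 and Notch2, the proteases Adam10 and Adam17, the nuclear factors Rbpj and Maml1 and the ligase Dtx4 were all detected, and none of their differences between genotypes passed the test. Notch4 was close to the limit of detection, with 38 counts over the WT libraries and 15 over the Gsdmd-/- libraries. The target gene Hes1 was represented by 7 counts in WT and 1 in Gsdmd-/- cells, so its response could not be measured at this depth.

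The 8 libraries held 14935114 to 16794810 counts each, so that 3 counts, the limit that a count of 0 allows, corresponded to 0.177 to 0.199 CPM, a limit that covers counting error only. Gsdmd itself had 1213, 1039, 1121 and 1570 counts in WT libraries 1 to 4 and 307, 243, 257 and 241 counts in the Gsdmd-/- libraries (log2 fold change -2.22, SE 0.139, adjusted p = 4.66e-05), and none of the labels was contradicted. WT 2 and WT 3 stood apart from the other libraries on the first principal component (scores of 45.4 and 38.8 against -25.9 to -7.19 in the other 6), which held 43.6% of the variance. The summed level of 9 macrophage markers was 15444 to 23569 CPM in WT and 19507 to 23494 CPM in Gsdmd-/- libraries. Of 6 mast cell markers, 2 (Kit and Cpa3) passed the filter on low counts. The list, nearly all of it Kit, summed to 10.7 to 12 CPM in WT 2 and WT 3 and to 46.1 to 71.7 CPM in the others. Cpa3 had 0.610 and 0.244 CPM in WT 2 and WT 3, within the 0.190 to 1.58 CPM of the other libraries. Lymphoid markers summed to at most 0.486 CPM, neutrophil markers to 4.62 to 6.97 CPM, and megakaryocyte markers to 10.1 to 33.3 CPM in WT and 15.8 to 20.3 CPM in Gsdmd-/- libraries.

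Per unit of exon length, the most abundant of these transcripts was Adam10. Expressed as TPM (counts divided by exon length and scaled to the same sum in every library), its level in WT cells was 134 ± 31.2 (SD, n = 4), followed by Adam17 at 72.7 ± 6.78, Dtx4 at 61.9 ± 36.7, Notch2 at 30.5 ± 8.61, Rbpj at 25.8 ± 11.2, Notch1 at 19.0 ± 5.21 and Maml1 at 18.1 ± 3.66. Jag1 lay lower, at 8.87 ± 0.830 TPM in WT and 4.72 ± 1.07 TPM in Gsdmd-/- cells. In WT cells the ranges of neighbours in this order overlapped from Adam17 down to Maml1, whereas Adam10 lay above Adam17 and Jag1 lay below Maml1 in every WT library. Notch4 and Hes1 came last, at 0.222 and 0.158 TPM in WT cells, and their ranges overlapped each other. Both proteases were thus above the ligand in every library, and the plot of levels per exon length shows this order for both genotypes.

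**Figure D1:**
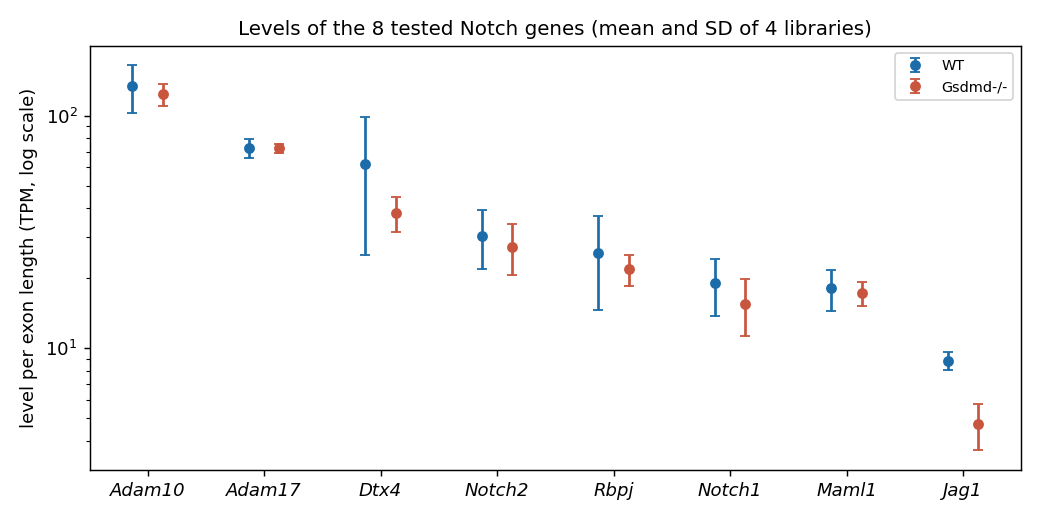
Mean level per exon length (TPM, log scale) of the 8 members that passed the filter on low counts, with the SD of 4 libraries as bars, for WT (blue) and Gsdmd-/- (red). Adam10 lies highest in both genotypes and Jag1 lowest, with Jag1 at 8.87 TPM in WT and 4.72 TPM in Gsdmd-/- cells.

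Of the 10 members, 8 passed the filter on low counts and were tested among 12911 genes with edgeR's quasi-likelihood test and Benjamini-Hochberg adjustment over all of them. None of the 8 reached an adjusted p under 0.05, compared with 0.349% of all genes tested, and 1 (Jag1) had an unadjusted p under 0.05, which is close to the share among all genes tested (1555 of 12911, or 12%). By limma voom, by DESeq2 and by the exact test of edgeR, 1 member passed an adjusted p of 0.05, beside 43, 292 and 246 of the 12911 genes. At the cutoff used in the study's volcano plot, an unadjusted p under 0.05 with a log2 fold change of at least 0.5 in size, 1 member (Jag1) was lower, compared with 3.28% of all genes tested, and none was higher (1.54%; 4.83% in either direction). Likewise, 1 of the 8, Jag1, was lower in all Gsdmd-/- libraries than in all WT libraries, against 4.11% of all genes (3.48% higher and 7.59% in either direction). In total, 7 of the 8 log2 fold changes lay below 0 and 1 above, with a median of -0.18, while the median over all genes tested was -0.0068. Of all genes tested, 6653 lay below 0 and 6258 above. With 8 members, 1 call is a larger share than the background of 3.28%, but it rests on a single gene. In these bulk cultures, fewer cells of a type and less RNA per cell cannot be told apart. The plot of CPM by library gives the values of all 10 genes.

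**Figure D2:**
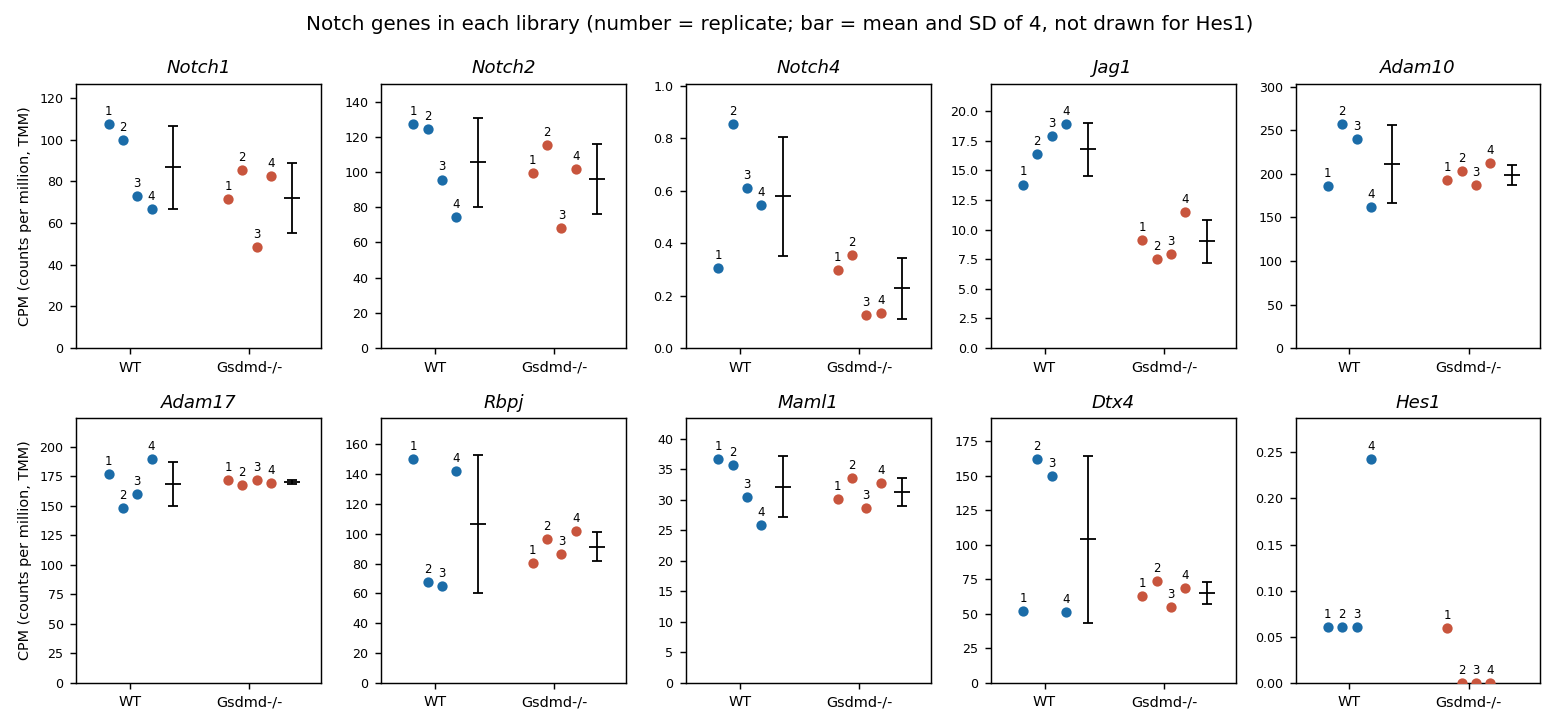
CPM of each of the 10 genes in each library (numbers are replicates), WT in blue and Gsdmd-/- in red, on linear axes that start at 0, with the mean and SD of 4 libraries as black bars except for Hes1. Only Jag1 among the 8 tested genes separates the genotypes, and WT 2 and WT 3 lie together at the top for Dtx4 and Adam10 and at the bottom for Rbpj and Adam17.

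Notch1, a receptor on chromosome 2 (26457903 to 26516663, minus strand, GRCm38/mm10), had 108, 99.7, 73.0 and 66.9 CPM in WT 1 to 4 and 71.8, 85.6, 48.7 and 82.6 CPM in Gsdmd-/- 1 to 4. The genotypes overlapped widely, and the lowest value was in Gsdmd-/- 3. The log2 fold change was -0.27 (SE 0.199, 95% interval -0.71 to 0.17, adjusted p = 0.648). Notch2, on chromosome 3 (98013527 to 98150361, plus strand), had 127, 124, 95.7 and 74.3 CPM in WT and 99.5, 115, 68.3 and 102 CPM in Gsdmd-/- libraries. Here too the highest and the lowest library came from different genotypes without separating them (log2 fold change -0.13, SE 0.194, 95% interval -0.56 to 0.30, adjusted p = 0.831). For both receptors the interval includes a fall as well as a rise. Exons of Notch1, Notch2 and Maml1 overlap those of non-coding genes that had at most 36 counts over the 8 libraries.

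The 2 receptors went up and down together across libraries. Their transcripts are long, with 14232 exon bases for Notch1 and 10782 for Notch2, more than in 97.2% and 92.9% of the genes tested. Long genes as a class varied between libraries in the same manner. The 646 tested genes with more than 12000 exon bases had a median log2 deviation from their mean over the 8 libraries of 0.17, 0.21, 0.0039 and -0.21 in WT 1 to 4 and of -0.07, 0.11, -0.27 and 0.06 in Gsdmd-/- 1 to 4. WT 4 and Gsdmd-/- 3, in which long genes were lowest, were also the libraries with the least Notch1 and Notch2. When this length trend was removed within each library, an alternative added after seeing the data, the ratio of the highest to the lowest library went from 2.21 to 1.67 for Notch1 and from 1.86 to 1.54 for Notch2. It went the other way for Rbpj, which has 12750 exon bases (2.31 to 2.67), for Adam17 (1.28 to 1.44) and for Jag1 (2.52 to 2.62). The log2 fold changes were then -0.19 (SE 0.122) for Notch1 and -0.08 (SE 0.134) for Notch2. The plot of the length trend shows the libraries in which long genes were low.

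**Figure D3:**
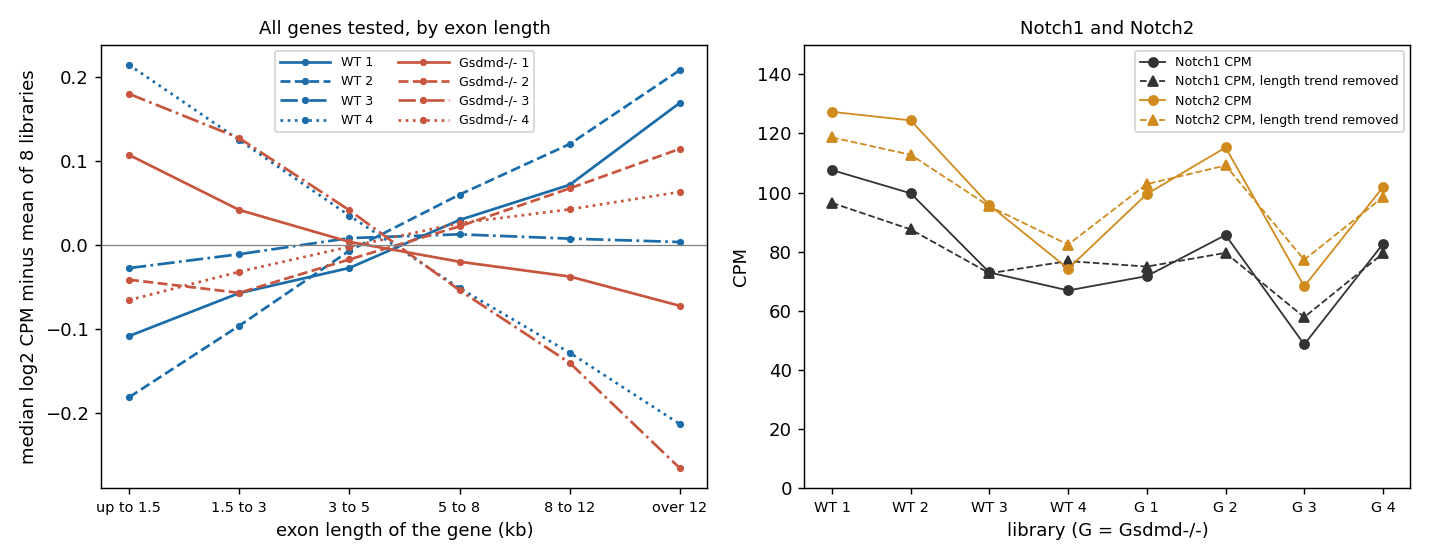
Left, median deviation of log2 CPM from the mean of the 8 libraries for genes tested, by exon length in kb, 1 line per library (WT blue, Gsdmd-/- red). Right, CPM of Notch1 and Notch2 by library as measured (circles) and after removal of the length trend (triangles); lines only join the libraries, and the dip in WT 4 and Gsdmd-/- 3 becomes smaller after removal.

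Within each library the balance between receptors was steadier than their levels. Notch2 made up 61.2 ± 1.63% of the receptor transcripts per exon length in WT and 63.8 ± 1.33% in Gsdmd-/- cells (SD, n = 4), and Notch1 made up 38.3 ± 1.72% and 36.05 ± 1.38%. The ratio of Notch2 to Notch1 per exon length was 1.47 to 1.73 in WT and 1.63 to 1.85 in Gsdmd-/- libraries, so the ranges overlapped. Notch3, a receptor typical of vascular mural cells, had 6 counts in WT 2, 2 counts in WT 3 and 0 in the other 6 libraries.

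Notch4, a receptor best known in endothelial cells, lies on chromosome 17 (34564268 to 34588503, plus strand). Its counts were 5, 14, 10 and 9 in WT 1 to 4 and 5, 6, 2 and 2 in Gsdmd-/- 1 to 4, or 0.579 ± 0.226 and 0.227 ± 0.115 CPM (SD, n = 4). WT 1 lay below Gsdmd-/- 2, so the genotypes overlapped, while 3 of the 4 Gsdmd-/- libraries lay below all WT libraries, Gsdmd-/- 1 only through its library size. The ratio of Gsdmd-/- to WT was 0.401 with a 95% interval from counting error of 0.205 to 0.746, and the exact two-sided permutation test over the 8 libraries gave p = 0.0571, where the smallest p this design allows is 0.0286. This p also rests on library size to place WT 1 above Gsdmd-/- 1, both at 5 counts. With no filter on low counts, which brought the gene into the test, the log2 fold change was -1.28 with an unadjusted p of 0.0319, which is past the study's cutoff, and an adjusted p of 0.536 by edgeR's quasi-likelihood test. Only 2 libraries reached 10 counts. The counting interval thus excluded a ratio of 1, while the test over libraries and the adjusted p did not pass the threshold.

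The endothelial marker list was examined beside Notch4. Of its 11 genes, 5 passed the filter and 2 were at 0 in every library (Tek and Sox17). The list summed to 143 to 275 CPM in WT and 135 to 213 CPM in Gsdmd-/- libraries, and 2 of the 5, Cdh5 and Esam, were lower at the study's cutoff, beside 3.28% of all genes tested. Cdh5 had 3.71, 5.37, 5.85 and 5.77 CPM in WT 1 to 4 and 3.02, 2.78, 4.18 and 4.64 CPM in Gsdmd-/- 1 to 4, with WT 4 as high as WT 2 and WT 3. Esam had 5.86 and 4.94 CPM in WT 2 and WT 3, 0.365 CPM in each of WT 1 and WT 4, and 0.355 to 0.928 CPM in Gsdmd-/- libraries. Kdr, of the same list, had 41.2 ± 22.3 CPM in WT and 63.4 ± 15.9 CPM in Gsdmd-/- cells (SD, n = 4; log2 fold change 0.62, adjusted p = 0.535). Vwf, the largest part of the sum, had 113, 237, 201 and 81.1 CPM in WT 1 to 4 and 84.5 to 131 CPM in Gsdmd-/- libraries. Tie1 had 0.122, 1.89, 1.83 and 0.182 CPM in WT 1 to 4 and 0.413 to 0.663 CPM in Gsdmd-/- libraries. The part of these markers in the Notch4 counts was not tested. Of the 11 tested genes within 250 kb of Notch4, 1, H2-Eb1, was lower at that cutoff, and the median log2 fold change over the 11 was -0.04.

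Jag1 encodes a membrane-bound ligand that binds Notch receptors on adjacent cells. The gene lies on chromosome 2 (137081456 to 137116644, minus strand). It had 227, 269, 294 and 311 counts in WT 1 to 4, or 13.8, 16.4, 17.9 and 18.9 CPM, and 154, 127, 125 and 173 counts in Gsdmd-/- 1 to 4, or 9.11, 7.5, 7.92 and 11.5 CPM. The lowest WT library thus lay above the highest Gsdmd-/- library. Means were 16.8 ± 2.23 and 9.0 ± 1.78 CPM (SD, n = 4), a log2 fold change of -0.90 (SE 0.159, 95% interval -1.25 to -0.55), with an unadjusted p of 0.000192 and an adjusted p of 0.0515 by edgeR's quasi-likelihood test.

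The side of the threshold on which Jag1 fell depended on the method, whereas its size hardly did. With limma voom, the package family named in the study's methods, the adjusted p was 0.0488, and over the 19 alternatives it ranged from 7.32e-05 (DESeq2) to 0.233 (without Gsdmd-/- 1), lying under 0.05 in 9 of them. Among single libraries left out, it was under 0.05 without WT 1 (0.045) and without Gsdmd-/- 4 (0.0444) only. The log2 fold change was below 0 in all 19, from -1.04 to -0.82, and was -0.86 without WT 2 and WT 3. The list of 9 dendritic cell markers, nearly all of it Itgax, summed to 2244 to 2386 CPM in WT and to 1687 to 2105 CPM in Gsdmd-/- libraries. None of its 5 tested genes passed an adjusted p of 0.05, and 2 (Batf3 and Clec9a) were lower at the study's cutoff, beside 3.28% of all genes tested. Batf3 had 11.2, 17.6, 20.3 and 18.1 CPM in WT 1 to 4 and 9.58, 8.15, 14.0 and 9.14 CPM in Gsdmd-/- 1 to 4, so WT 4 was as high as WT 2 and WT 3, and Itgax was lower in every Gsdmd-/- library than in any WT library. Clec9a had 49.0 and 45.2 CPM in WT 2 and WT 3, while its 16.96 and 17.6 CPM in WT 1 and WT 4 lay within the Gsdmd-/- range of 14.4 to 18.3 CPM. Stromal markers summed to 2.86 to 4.68 CPM in WT and 2.60 to 3.36 CPM in Gsdmd-/- cells. The part of these cells in the Jag1 difference was not tested.

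Jag1 was the only one of 7 listed Notch ligands or related proteins to pass the filter. Dll4, a Delta-type ligand, had 8, 2, 4 and 11 counts in WT and 10, 7, 7 and 10 counts in Gsdmd-/- libraries. Jag2 and Dll1 had at most 5 counts in any library. These ligands did not pass the filter on low counts, so they were not among the genes tested.

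The sequence upstream of Notch4 and Jag1, the 2 members with the lowest ratios of Gsdmd-/- to WT levels among those for which one is given, is shown to give the context of their start sites, together with that of Rbpj, whose product recognises the core TGGGAA. Each is RefSeq sequence of GRCm38.p6, 5′ to 3′ on the strand of the gene, and capitals mark the core. It is cut at the first annotated exon base met in the 250 bases before the start site. The Rbpj start shown lies inside the annotated gene, which begins at 53466152, so its window is not upstream of the whole gene. The windows are chr2:137116645-137116770 (minus strand) for Jag1, chr17:34564045-34564267 (plus strand) for Notch4 and chr5:53590096-53590213 (plus strand) for Rbpj.
Jag1: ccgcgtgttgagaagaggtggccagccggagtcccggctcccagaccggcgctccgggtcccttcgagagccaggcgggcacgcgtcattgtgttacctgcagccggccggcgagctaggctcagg
Notch4: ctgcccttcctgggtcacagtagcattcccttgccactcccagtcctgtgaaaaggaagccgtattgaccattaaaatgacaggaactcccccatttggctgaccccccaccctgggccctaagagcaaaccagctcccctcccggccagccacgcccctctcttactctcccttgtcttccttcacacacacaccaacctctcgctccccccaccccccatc
Rbpj: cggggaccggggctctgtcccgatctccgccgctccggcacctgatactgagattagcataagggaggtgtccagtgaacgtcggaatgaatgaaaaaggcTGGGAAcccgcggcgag
RefSeq start sites were matched for 8 of the 10 members, 9 sites in all. Searched on both strands over the 250 bases before each site, the core was present at 2 of the 9, both of Rbpj, and at 21.6% of the 32851 promoters in the same collection. The 2 Rbpj windows overlap and share a match, so by gene it was present in 1 of 8 members, beside 24.1% of genes. At the Rbpj start shown, the core in capitals spans positions -149 to -144 from the start. A match in letters is a description and not a bound site.

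Adam10, the metalloprotease that makes the ligand-induced cut in Notch receptors, lies on chromosome 9 (70678997 to 70780229, plus strand). It had 186, 257, 240 and 162 CPM in WT 1 to 4 and 193, 203, 187 and 212 CPM in Gsdmd-/- 1 to 4. All Gsdmd-/- values fell within the WT range, WT 2 and WT 3 being highest (log2 fold change -0.09, SE 0.139, 95% interval -0.40 to 0.22, adjusted p = 0.846). Adam17, a related sheddase known for releasing tumour necrosis factor, lies on chromosome 12 (21323509 to 21373632, minus strand). It had 177, 148, 159 and 190 CPM in WT and 172, 168, 172 and 169 CPM in Gsdmd-/- libraries, with WT 2 and WT 3 lowest. Its log2 fold change was 0.013 (SE 0.089, 95% interval -0.19 to 0.21, adjusted p = 0.968). The 4 Gsdmd-/- libraries were very close to each other, with a coefficient of variation of 1.19%, compared with 10.97% among WT libraries. Adam17 shares 311 exon bases with Iah1 on the opposite strand, which had 6264 counts over the 8 libraries, and since the strand setting of the counting was not given in the sources used here, reads from this overlap cannot be told apart.

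Rbpj, the DNA-binding factor through which all Notch receptors act, lies on chromosome 5 (53466152 to 53657362, plus strand). It had 2475 and 2341 counts in WT 1 and WT 4 but 1113 and 1069 in WT 2 and WT 3, and 1362, 1640, 1360 and 1535 in Gsdmd-/- 1 to 4. In CPM the WT values were 150, 67.9, 65.2 and 142, and the Gsdmd-/- values of 80.6, 96.9, 86.2 and 102 lay in the gap between the WT pairs. Over all libraries the means were 106 ± 46.2 and 91.3 ± 9.67 CPM (SD, n = 4; log2 fold change -0.22, SE 0.263, 95% interval -0.81 to 0.36, adjusted p = 0.784). Without WT 2 and WT 3, the log2 fold change of Rbpj was -0.68 with an adjusted p of 0.0199. With WT 1 alone left out it was -0.0051 (95% interval -0.57 to 0.56), and with WT 4 alone left out it was -0.048. By contrast, voom with sample quality weights, added after seeing the data, gave 0.29 with an adjusted p of 0.298. The 2 pseudogenes named Rbpj-ps in the table had 200 and 0 counts.

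Dtx4, on chromosome 19 (12466338 to 12501454, minus strand), showed the opposite arrangement. It had 860 and 845 counts in WT 1 and WT 4, 2662 and 2461 counts in WT 2 and WT 3, and 1069, 1247, 862 and 1032 counts in Gsdmd-/- 1 to 4. In CPM, WT libraries had 52.3, 162, 150 and 51.4 and Gsdmd-/- libraries 63.2, 73.7, 54.6 and 68.4, again between the WT pairs. Although the mean was higher in WT, at 104 ± 60.5 against 65.0 ± 8.11 CPM (SD, n = 4), the difference did not pass the test (log2 fold change -0.68, SE 0.359, 95% interval -1.48 to 0.12, adjusted p = 0.502). Without WT 2 and WT 3 the sign turned, to 0.32 with an adjusted p of 0.297, while voom with sample quality weights gave -0.96 with an adjusted p of 0.0280. Without WT 1 or without WT 4, Dtx4 passed the study's cutoff, with a log2 fold change of -0.90 in either case. Without WT 2 it was -0.39 and without WT 3 it was -0.45, both smaller than the cutoff's 0.5. The direction of Dtx4 thus depended on which WT libraries were counted. Rbpj came close to 0 without WT 1 or without WT 4, and rose above 0 only with sample quality weights. The ratio of Dtx4 to Rbpj counts was 0.347 and 0.361 in WT 1 and WT 4, 2.39 and 2.30 in WT 2 and WT 3, and 0.634 to 0.785 in the Gsdmd-/- libraries.

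WT 2 and WT 3 were the highest or the lowest pair of the 8 libraries for 4 of the 8 tested members, namely Dtx4 and Adam10 as the highest and Rbpj and Adam17 as the lowest. This was 50% of the members, beside 45.7% of the 70 tested genes on the pathway lists and 35.5% of all genes tested. Jag1, Notch1, Notch2 and Maml1 were not among them. The mast cell list, nearly all of it the receptor gene Kit, was lowest in the same 2 libraries, and its part in these values was not tested. The plot of intervals shows that Jag1 kept its position with or without these libraries.

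**Figure D4:**
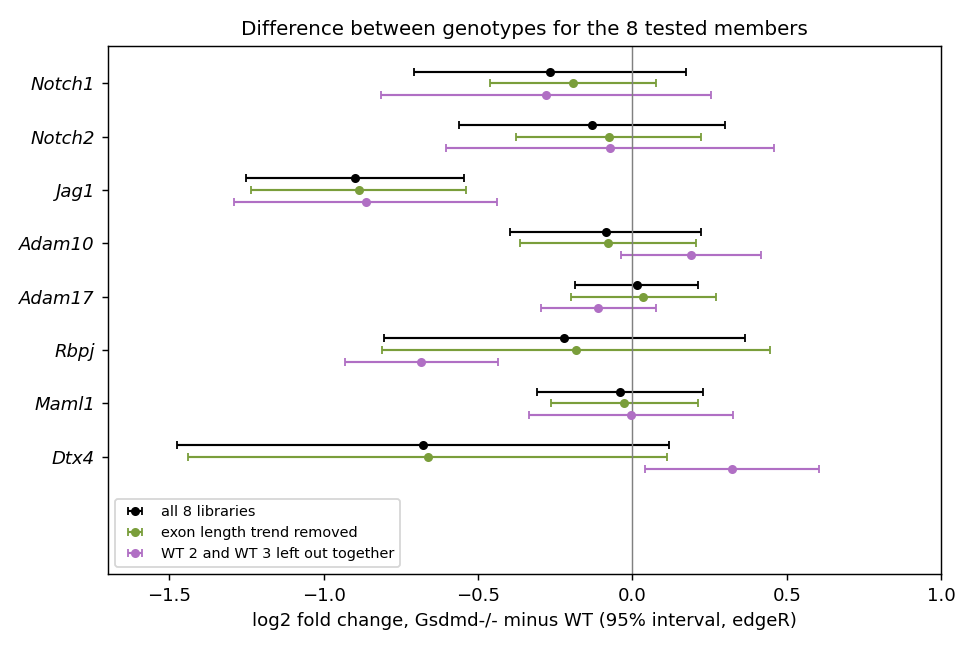
Log2 fold change of the 8 tested members (Gsdmd-/- minus WT) with 95% intervals from edgeR, for all 8 libraries (black), after removal of the exon length trend (green) and without WT 2 and WT 3 (purple). The Jag1 interval lies below 0 in each fit, Rbpj moves from -0.22 to -0.68 and Dtx4 from -0.68 to 0.32 when the 2 libraries are left out.

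Maml1, the coactivator that joins Rbpj and the freed receptor domain, lies on chromosome 11 (50255634 to 50292311, minus strand). Its levels were 36.7, 35.6, 30.4 and 25.8 CPM in WT and 30.2, 33.5, 28.7 and 32.7 CPM in Gsdmd-/- libraries, with the latter inside the WT range. The log2 fold change was -0.04 (SE 0.121, 95% interval -0.31 to 0.23, adjusted p = 0.929). The lower end of the interval reached -0.39 when Gsdmd-/- 2 was left out.

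Hes1, a transcriptional repressor and a classical target of Notch, lies on chromosome 16 (30064384 to 30067796, plus strand). It had 1, 1, 1 and 4 counts in WT 1 to 4 and 1, 0, 0 and 0 counts in Gsdmd-/- 1 to 4. Apart from WT 4, every library was below the limit that a count of 0 allows, and so were the means of both genotypes. WT 1 to 3 and Gsdmd-/- 1 each had 1 count, so that their order in CPM rests on library size alone. The exact two-sided permutation test on CPM gave p = 0.0286, the smallest this design allows, from 8 counts in all. It reached that value only because library size breaks the tie of the libraries at 1 count. No fold change is given because both means are below the limit.

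The members were set against a wider list of 89 Notch pathway genes arranged by role, of which 70 passed the filter and 7 were at 0 in every library. In the test across all genes, 1 of the 70 was higher in Gsdmd-/- cells with an adjusted p under 0.05 (0.139% of all genes tested were called higher) and none was lower (0.209%). At the study's cutoff, 1 of the 70 was higher and 2 were lower, shares close to those of all genes tested (1.54% and 3.28%). In total, 48 log2 fold changes were below 0 and 22 above, with a median of -0.08. Over all genes tested, 6653 were below 0 and 6258 above, with a median of -0.0068. In the same test, 13 of the 70 had an unadjusted p under 0.05, beside 12% of all genes tested. The gene called higher was Myc, a proliferation-associated transcription factor and Notch target in lymphoid cells. It had 35.8, 38.8, 37.6 and 33.6 CPM in WT and 51.7, 48.0, 54.6 and 53.3 CPM in Gsdmd-/- libraries (log2 fold change 0.51, SE 0.0827, adjusted p = 0.0361). Myc responds to many other signals, and its direction is opposite to that of Jag1. Its adjusted p stayed under 0.05 when WT 4 was left out (0.0448) and rose to between 0.0727 and 0.164 when any other single library was.

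The other gene lower at the cutoff besides Jag1 was Efnb2, which encodes the membrane ligand ephrin-B2. It had 0.973, 3.42, 3.05 and 1.03 CPM in WT and 0.769, 0.650, 0.380 and 0.928 CPM in Gsdmd-/- libraries, so WT 2 and WT 3 were highest here as well (log2 fold change -1.63, SE 0.484, adjusted p = 0.234). Without them its log2 fold change was -0.56 with an adjusted p of 0.655. The classical targets Hey2 and Heyl were at 0 in every library, and Nrarp had 1 count in WT 1 alone. Hey1 passed the filter, with 36 counts over the WT and 52 over the Gsdmd-/- libraries (log2 fold change 0.55, adjusted p = 0.696). Hes6, another listed target, had 21.2 CPM in WT and 21.1 CPM in Gsdmd-/- cells.

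By role, the 7 tested γ-secretase subunits had 5 values above 0 and 2 below, with a median log2 fold change of 0.08, and the most abundant, Ncstn, had 159 ± 7.5 CPM in WT and 169 ± 8.63 CPM in Gsdmd-/- cells. The 6 genes of receptor glycosylation and furin cleavage had a median of 0.07, and Furin, the protease that matures Notch receptors, had 222 ± 83.8 and 284 ± 30.0 CPM (SD, n = 4). None of these genes passed either rule. The 7 tested genes of ADAM-dependent cleavage had a median of -0.02, and Tspan14, a tetraspanin partner of Adam10, had 156 ± 38.1 and 154 ± 5.51 CPM.

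Among nuclear factors, the 14 corepressors had 11 values below 0 and 3 above, with a median of -0.24, and none passed either rule. For comparison, 6653 of all 12911 genes tested were below 0. Their most abundant gene, Ctbp1, had 180 ± 27.8 CPM in WT and 193 ± 9.90 CPM in Gsdmd-/- cells. The 9 tested members of the transcription complex had a median of -0.10, with the histone acetyltransferase gene Kat2a at 32.2 ± 1.99 and 30.0 ± 2.92 CPM. The 15 tested ubiquitin ligases and endocytic regulators had 13 values below 0 and a median of -0.14, with Dtx3 at 52.9 ± 4.05 and 58.5 ± 4.07 CPM. Of the 9 tested target genes, Cdkn1a, an inhibitor of the cell cycle, was the most abundant, at 294 ± 70.2 and 329 ± 23.3 CPM. Other than Jag1, Myc and Efnb2, no gene of any role passed either rule, as the plot of the pathway by role shows.

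**Figure D5:**
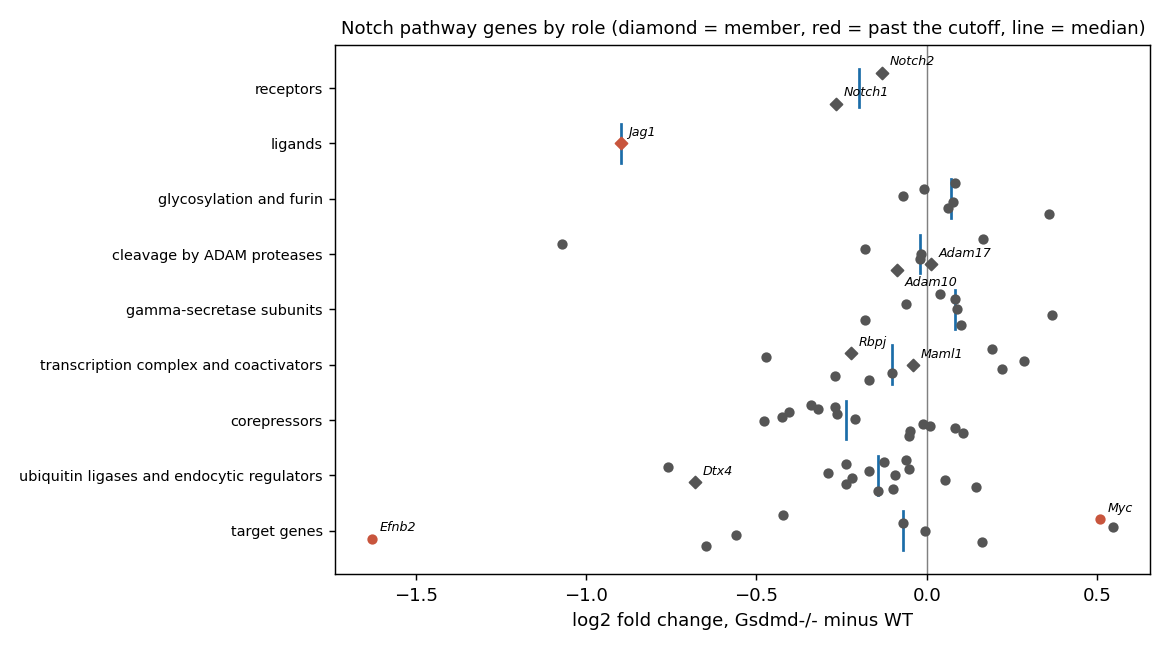
Log2 fold change (Gsdmd-/- minus WT) of the 70 tested Notch pathway genes in rows by role, with members as diamonds, genes past the study's cutoff in red and the median of each role as a blue line. Most values lie within 0.5 of 0, and Jag1 and Efnb2 on the left and Myc on the right are the 3 genes past the cutoff.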

How the data were processed

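Total RNA of untreated BMDMs was extracted with TRIzol and made into libraries with an Illumina TruSeq RNA kit. The authors deposited raw read counts per gene, 1 column per library, with gene identifiers and symbols. The build named in the submitters' notes is mm10. The aligner, counter and annotation were not given in the sources used here. Groups were taken from the sample labels. The members and lists were chosen with earlier results of these data known.

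Counts were scaled with TMM, filtered with filterByExpr and tested by genotype with edgeR 4.0.16 (quasi-likelihood, two-sided, Benjamini-Hochberg over 12911 genes) in R 4.3.3. DESeq2 1.42.0 and limma 3.58.1 were alternatives. The study's methods name limma and its volcano plot edgeR. The depth of 14935114 to 16794810 counts per library limits genes such as Notch4. TPM used union exon lengths of GENCODE M21, in which 54495 of the 54532 identifiers were found, and gene positions are from it. Log2 CPM used a prior count of 2. Promoters were read from RefSeq.

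The named genes were all members, Gsdmd, pathway genes past either call rule, the most abundant gene per length in each role, and the 3 genes nearest to Notch4 in profile, which are not reported here. H2-Eb1, Dll4, Jag2, Dll1, Notch3, Hey1, Hey2, Heyl, Hes6, Nrarp and the marker genes were named after their values were seen. The fits were tested on simulated data.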

Additional observations from a re-analysis of the deposited data

Results flagged for a closer look

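In each genotype the highest or lowest of the 4 libraries was compared with the others by Dixon's test for the 10 genes, 20 groups in all, of which chance flags about 1 in 20. Both values that stood out belonged to Hes1. In WT 4 it was at 0.243 CPM, from 4 counts, while the other WT libraries were at 0.0608 to 0.0610 CPM. In Gsdmd-/- 1 it was at 0.0592 CPM, from 1 count, and the other Gsdmd-/- libraries were at 0. These gaps are of at most 4 counts.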

How the results depend on the processing

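The number of genes called at an adjusted p under 0.05 was 45 over all genes, 0 over the members and 1 over the pathway list. In that order it was 246, 1 and 3 with the edgeR exact test, 292, 1 and 3 with DESeq2, 109, 1 and 2 with no filter, 161, 1 and 2 without WT 2 and WT 3, 95, 1 and 2 with the exon length trend removed, and 1792, 2 and 16 with voom and sample quality weights, the last 2 alternatives chosen after seeing the data. It was 43, 1 and 2 with limma voom and 49, 1 and 2 with RLE normalization. Leaving out 1 library gave 14 to 84, 0 to 1 and 0 to 1. At the study's cutoff, the counts of 623, 1 and 3 became 1204, 3 (Jag1, Dtx4 and Notch4) and 7 with no filter, 1528, 2 and 13 with quality weights, 199, 0 and 1 with a log2 fold change of at least 1, and 823, 2 and 8 without WT 2 and WT 3. Leaving out 1 library gave 469 to 1022, 1 to 2 and 2 to 8. For members, the sign turned for Rbpj with quality weights (0.29), and without WT 2 and WT 3 for Dtx4 (0.32), Adam10 (0.19) and Adam17 (-0.11). Leaving out 1 library gave -0.26 to 0.0034 for Notch2, -0.13 to 0.0305 for Maml1, -0.19 to 0.016 for Adam10 and -0.049 to 0.0774 for Adam17. It gave -0.40 to -0.0051 for Rbpj and -0.90 to -0.39 for Dtx4. The cause of these shifts was not tested. The replicate numbers did not pair the samples (same-number correlations of 0.027, 0.182, 0.041 and -0.201), and the replicate block gave 25, 0 and 0 calls at an adjusted p under 0.05, with Jag1 at -0.90 (adjusted p = 0.0835).

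Limits: low counts bound what can be said of Notch4 and Hes1, and with 4 libraries per genotype the 95% interval of Notch1 runs from -0.71 to 0.17 on the log2 scale.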
